A study of Daphnia magna with 24 samples.

Results

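Water from the first position downstream of the mine drainage at Greenhorn Mine, labelled downstream 1, was compared with upstream water by its effect on gene expression in the water flea Daphnia magna. The waters compared are those of 12 of the 24 arrays of the series, chosen from their site labels, which form 6 of its 12 exposures, 3 to each water. The other exposures, of drainage entry and downstream 2 water, enter the test through the estimate of the spread, which is pooled over all 12. Per the labels' protocols, genetically homogeneous adult females, 14 to 16 days of age, from a commercial supplier spent 24 h in the water at 23.5 °C, and whole animals were pooled by 10 to 15 for each exposure. On every array, RNA of exposed animals was hybridised together with RNA of unexposed animals kept in COMBO, a defined freshwater medium, and each exposure had 2 arrays with Cy3 and Cy5 exchanged. Both groups therefore share the control medium, the strain and the exposure conditions, and they differ by the site of the water. The design text states that the sites carried different amounts of copper, but the sources used here give no concentration.

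Daphnia are filter-feeding crustaceans that take up dissolved metals across the gill-like epithelia of their limbs and through the gut, and they are a standard test animal for metal toxicity. Copper is an essential cofactor of enzymes such as cytochrome c oxidase and superoxide dismutase, and excess copper disturbs ion balance and promotes oxidative damage. In arthropods, metallothioneins, small cysteine-rich proteins, bind surplus copper. None of these genes can be looked up here, because the array features carry only position-like IDs, the files pair no ID with a gene, and 0 of 7680 IDs matched a table of Daphnia magna genes. Features are therefore described by their values and no function is assigned to any of them.

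A value is the log ratio of both RNAs on an array. Its base is not stated and was taken to be 2, and folds hold only in that case. The labels also do not say whether a positive value stands for more RNA in exposed or in control animals. Exposed over control is likely, since the design text describes exposures set against a control, but differences are called positive or negative here, always as downstream 1 minus upstream. The 6 exposures run in the same direction, because both dye-swap arrays of each correlated positively (r from 0.149 to 0.630 across features) and the dye effect did so between exposures as well (r from 0.395 to 0.715 over 15 pairs). Arrays with the same dye orientation correlated at -0.13 to 0.66 over 30 pairs.

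The exposures of upstream water resembled each other less than those of downstream 1 water. Across features, which are not independent replicates, log ratios of upstream exposures correlated with r from -0.29 to 0.12, and those of downstream 1 exposures with r from 0.42 to 0.62. Between the waters r ranged from -0.11 to 0.45 over 9 pairs, and the highest joined upstream exposure 2 to downstream 1 exposure 1. Upstream exposure 3 stood apart by its small ratios and by the weakest correlation of its 2 dye-swap arrays. This r was 0.149, against 0.407 and 0.630 in upstream exposures 1 and 2, and 0.527 to 0.599 in downstream 1 water. Upstream exposure 3 had 0.533% of its measured features beyond 1 in size, against 6.52% in upstream exposure 1 and 7.89% in upstream exposure 2. In downstream 1 water these shares were 5.19%, 5.36% and 3.21% in exposures 1, 2 and 3. The labels do not say whether control RNA was shared between exposures, nor whether exposures came from separate cultures or water collections, so the spread behind the p-values, pooled over the 12 exposures of 4 sites, may in part be technical.

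As a whole, downstream 1 exposures were not shown to lie farther from the control than upstream exposures. The median feature was 0.214, 0.207 and 0.122 in size in upstream exposures 1, 2 and 3, and 0.195, 0.127 and 0.134 in those of downstream 1. The groups overlapped. The means were 0.181 ± 0.051 upstream and 0.152 ± 0.037 at downstream 1 (SD, n = 3), a difference of -0.0292 (exact permutation p 0.4, two-sided), where the smallest p this design allows is 0.1. With arrays of exposed RNA in Cy3 alone the sign turned, to 0.0184.

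A short list of features passed the test between the waters, with a length that depended on the fit. In limma, 48 of 7388 features tested passed an adjusted p under 0.05 between downstream 1 and upstream (0.650%), of which 23 had a positive (0.311%) and 25 a negative difference (0.338%). The positive ones differed by 0.75 to 3.19 with a median of 1.52, and the negative ones by -2.40 to -0.97 with a median of -1.26. Over all features tested the median size of the difference was 0.144, and over these 48 it was 1.40. The 3 exposures of one water did not overlap the 3 of the other in 48 of 48. Over the 7140 features measured in all 6 exposures this held for 12.2%, 7.31% in the positive and 4.87% in the negative direction. The 48 were chosen by a test on the same values, which favours a lack of overlap, so this contrast is no further support. Because RNA came from whole animals, a change in the number of cells of a type and a change in RNA per cell cannot be told apart.

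The number of features passing depended strongly on single exposures and on scaling. It was 10 without upstream exposure 1, 9 without upstream exposure 2 and 25 without upstream exposure 3. Leaving out downstream 1 exposure 1 gave 45, leaving out exposure 2 gave 9 and leaving out exposure 3 gave 13. Only 9 features, 2 positive and 7 negative, passed in all 6 of these fits, and 8 of the 48 passed in none. With arrays scaled to one spread 9 features passed and all of them were positive (100%, against 47.9% positive here), so the balance of signs among passing features was not stable. The values themselves moved little. Under scaling the 48 features had a median size of 1.40, and 48 of 48 had the same sign. A fit of both waters alone let 16 pass, and 0 passed when exposure numbers were added to it as a replicate block. Array weights let 28 pass, and the Cy5-labelled exposed RNA by itself 25. All 24 arrays, with the 2 of an exposure linked as a random block, gave 209.

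**Figure D1:**
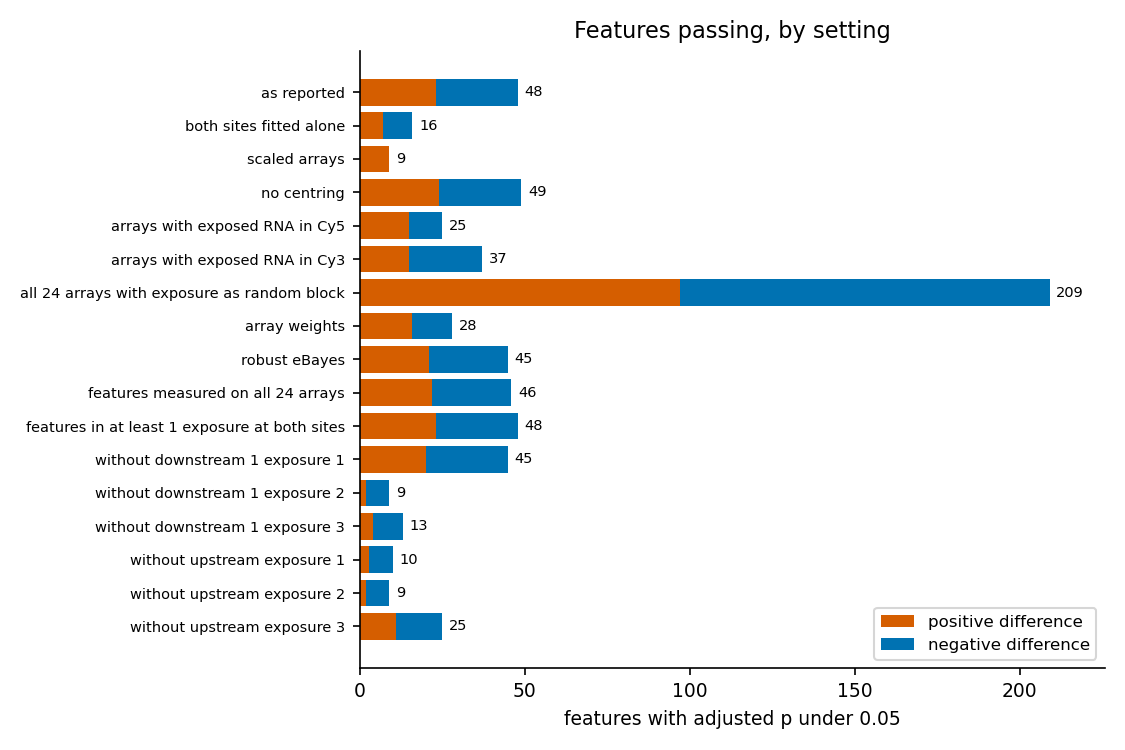
Number of features with an adjusted p under 0.05 (horizontal axis) under each setting (vertical axis), with positive differences in orange and negative ones in blue. The count is 48 as reported and falls to 9 without upstream exposure 2, without downstream 1 exposure 2 or with scaled arrays. It reaches 209 with all 24 arrays and exposure as a random block. The fit blocked by exposure number, in which 0 features passed, is described in the text and not drawn.

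Of the features that passed, the 2 of lowest p in each direction are named. A6E16 had the lowest p of all. Its log ratio to control was -0.0020, 0.05 and 0.01 in upstream exposures 1, 2 and 3, and -1.75, -1.84 and -1.79 in downstream 1 exposures 1, 2 and 3. It was thus level with the control in every upstream exposure and low in every downstream 1 exposure, with 1.75 between the nearest exposures of the 2 waters. The difference was -1.81 (SE 0.09, 95% interval -2.02 to -1.61, limma adjusted p 2.6e-05), a 3.52-fold lower ratio if the base is 2. P11DG2 was at 0.08, 0.15 and 0.15 upstream and at -1.90, -2.00 and -1.98 in downstream 1 water. Again no exposure of one water came near the other, and the exposures of each water lay within a narrow band. P11DG2 differed by -2.09 (SE 0.12, 95% interval -2.37 to -1.82, limma adjusted p 4.9e-05), which is 4.26-fold lower on the same assumption.

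Within each of these waters, the positive features of lowest p had a wider spread between exposures than the negative ones. P5BE5 was at -0.09, 0.17 and 0.0035 in upstream exposures 1, 2 and 3, and at 1.51, 1.69 and 1.42 in those of downstream 1. All upstream values lay around the control and all downstream 1 values well above it. The difference was 1.52 (SE 0.14, 95% interval 1.20 to 1.83, limma adjusted p 0.0012), or 2.86-fold. P13AE11 was at 0.08, -0.13 and 0.07 upstream and at 1.09, 1.12 and 1.32 in downstream 1 water. Its groups did not overlap either, and the nearest exposures were 1.01 apart. The difference was 1.17 (SE 0.12, 95% interval 0.91 to 1.43, limma adjusted p 0.0017), or 2.25-fold.

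The 4 named features passed without each of the 6 exposures in turn. With scaled arrays their differences were -1.80 for A6E16, -2.09 for P11DG2, 1.55 for P5BE5 and 1.19 for P13AE11, close to the values above, but none of them passed (limma adjusted p 0.13, 0.10, 0.13 and 0.14). The difference was also alike in both dye orientations. With exposed RNA in Cy5 and in Cy3 it was -1.87 and -1.76 for A6E16, -2.11 and -2.07 for P11DG2, 1.52 and 1.51 for P5BE5, and 1.15 and 1.19 for P13AE11.

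**Figure D2:**
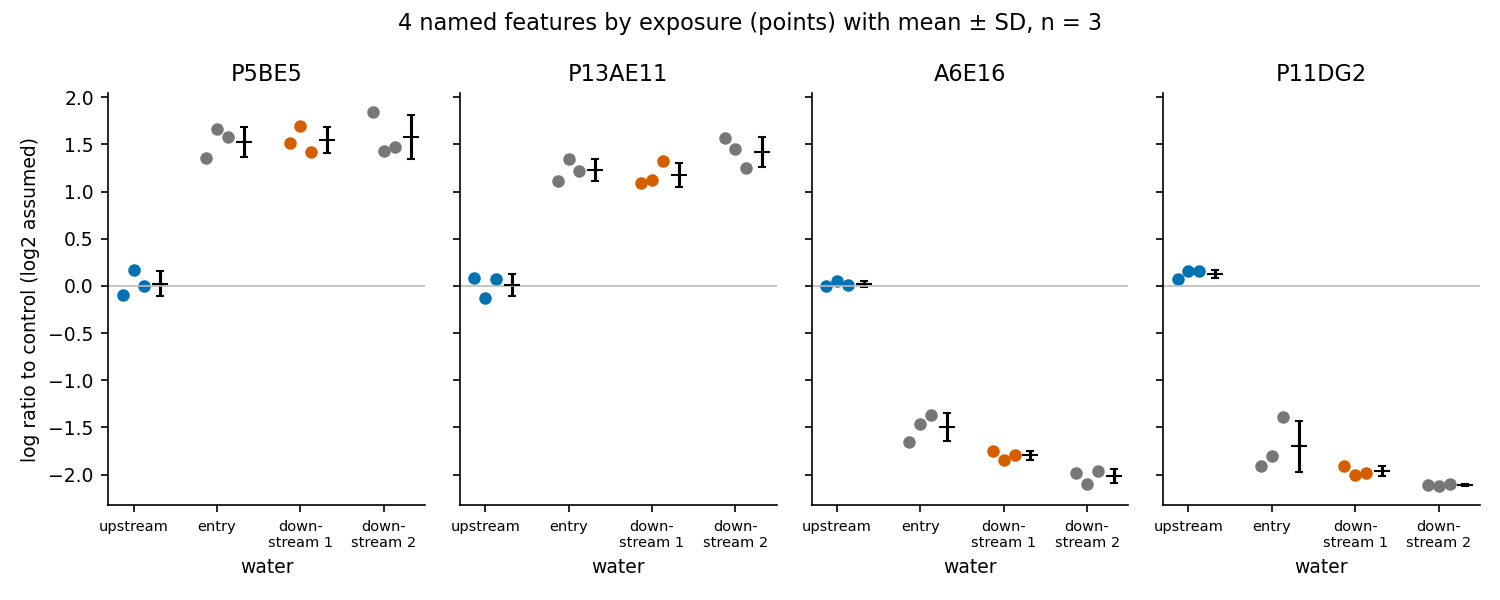
Log ratio to control (vertical axis, log2 assumed) of the 4 named features in each of the 3 exposures per water (points), with mean ± SD over exposures beside them. All upstream points (blue) lie between -0.13 and 0.17, while downstream 1 points (orange) lie at -1.75 and below for A6E16 and P11DG2 and at 1.09 and above for P5BE5 and P13AE11, with the other mine-water sites in grey.

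The water of the drainage entry and that of downstream 2 give the setting of these values. Comparisons of those waters with upstream water use the same upstream arrays, so they are set side by side only. In the order entry, downstream 1, downstream 2, the mean of A6E16 was -1.49 ± 0.15, then -1.79 ± 0.05, then -2.01 ± 0.08 (SD, n = 3). In the same order P11DG2 had -1.70 ± 0.27, -1.96 ± 0.05 and -2.11 ± 0.013. The positive features had means of 1.53 ± 0.16, 1.54 ± 0.14 and 1.58 ± 0.23 for P5BE5, and 1.23 ± 0.12, 1.18 ± 0.12 and 1.42 ± 0.16 for P13AE11. In each of the 4 features, the means of the 3 mine-water sites lay far closer to each other than to the upstream mean. Over the 23 positive features the median site mean was 0.11 for upstream water, 1.63 for entry water, and 1.62 and 1.60 for the downstream waters 1 and 2. Over the 25 negative ones it was -0.0094, -1.35, -1.29 and -1.27.

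A difference between the waters can come from either side, since each value is a ratio to control. In the 48 features the downstream 1 mean was the one away from the control. Their upstream means were all within 0.28 of the control in size, and their downstream 1 means were all at least 0.73 away from it. In the same limma fit, 48 of 48 also passed for downstream 1 against control, where 237 of 7388 features passed (3.21%). None passed for upstream against control, where none of 7388 did (0%; 480 at an unadjusted p under 0.05 and a lowest adjusted p of 0.46). This is a description, because the same downstream 1 arrays enter both tests and because features with a small spread upstream pass more easily. The median SD between upstream exposures was 0.162 in the 48 and 0.259 over all features, whereas between downstream 1 exposures it was 0.301 and 0.151.

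**Figure D3:**
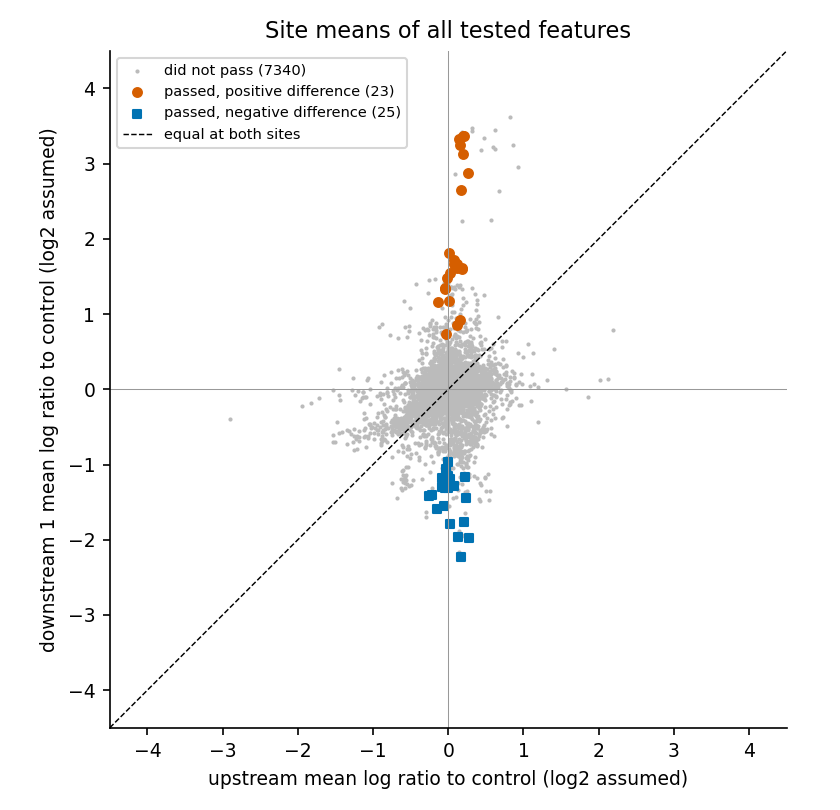
Mean log ratio to control over 3 upstream exposures (horizontal axis) and 3 downstream 1 exposures (vertical axis) of each tested feature, both log2 assumed. The 23 features that passed with a positive difference (orange) and the 25 with a negative one (blue) lie along the vertical line at an upstream value of 0, and grey points that did not pass spread in both directions.

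Many large differences did not pass. In size, 264 of 7388 features differed by over 1 (3.57%), 112 positive and 152 negative, and 44 of them were among the 48. Of the 264, 251 were measured in all 6 exposures, and 184 of these had no overlap, 140 of which did not pass. Over all features so measured the share without overlap was 12.2%, and choosing features by a large difference itself favours it. In the 220 not passing, the median residual SD between exposures was 0.642, against 0.264 in the 44 and 0.237 over all features. A site mean beyond 0.5 in size occurred in 9.60% of all features at downstream 1 and in 6.73% upstream. Split there, 193 of the 264 were beyond it at downstream 1 alone, 43 upstream alone and 28 at both sites, 19 of these with opposite signs.

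The 193 features far from control at downstream 1 alone, 71 positive and 122 negative, included the 44 that passed. Their median size was 0.956, 1.43 and 1.30 in downstream 1 exposures 1, 2 and 3, against 0.174, 0.369 and 0.158 in upstream exposures 1, 2 and 3. Upstream exposure 2 was the least settled of them, with 84 of 193 features beyond 0.5 there, against 16 of 193 in upstream exposure 1 and 18 of 192 in upstream exposure 3. Of 192 measured in all 6 exposures, 155 did not overlap, against 12.2% of all features so measured. The 193 were chosen by a large difference, which favours a lack of overlap and also passing the test. Over all features tested 0.650% passed.

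The 43 features far from control upstream alone behaved differently. Their median size was 2.49 in upstream exposure 1, 0.716 in exposure 2 and 0.148 in exposure 3, with 42 of 43, 27 of 41 and 1 of 35 measured features beyond 0.5. In downstream 1 exposures 1, 2 and 3 it was 0.168, 0.267 and 0.104. Upstream exposure 1 therefore carried most of this group, and exposure 3 had almost none of it. None of the 43 passed (lowest limma adjusted p 0.071). Over all features tested only 0.650% passed, so this count says little about the 43. Of 32 measured in all 6 exposures 11 did not overlap, against 12.2% of all features so measured. The 43 were chosen by a large difference, which favours a lack of overlap. Signs were mixed, with a positive upstream mean in 20 of 43.

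**Figure D4:**
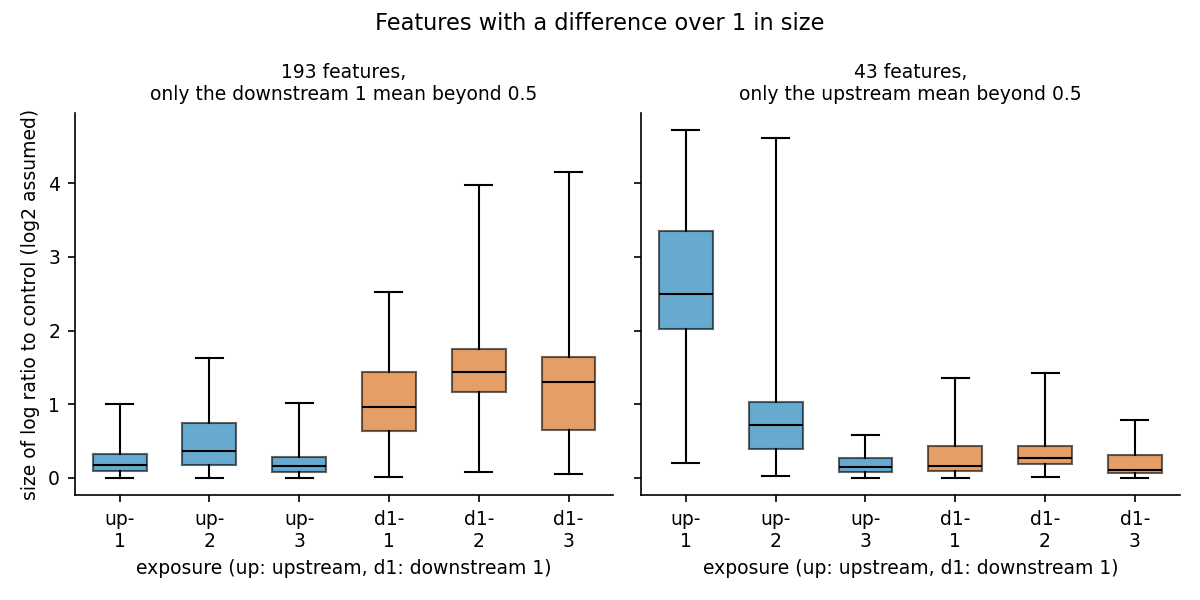
Size of the log ratio to control (vertical axis, log2 assumed) in each exposure (horizontal axis) for the features that differed by over 1 between the waters, with median, quartiles and full range. In the 193 features at left the 3 downstream 1 exposures have medians of 0.956, 1.43 and 1.30, and in the 43 features at right upstream exposure 1 has a median of 2.49 while upstream exposure 3 is at 0.148.

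The features that passed were grouped by their values over the 6 exposures. Features were joined where their profiles differed by a root mean square distance of at most 0.3 (average linkage), which gave 14 profiles. The 3 most common had 13, 8 and 4 features, together 25 of the 48, and 4 profiles held 1 feature each. The number of profiles depends on the distance chosen. These profiles were defined by the values themselves and are described with no test. Members of a profile have like values by the rule that joined them. Measured on the same arrays, the 48 features cannot be counted as 48 independent observations. Whether features of a profile derive from one transcript is not known here.

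The profile of 13 features was negative in downstream 1 water and differed between its exposures. Its mean was -0.14, 0.22 and -0.16 in upstream exposures 1, 2 and 3, and -0.84, -1.11 and -1.63 in downstream 1 exposures 1, 2 and 3. The 13 members lay between -1.04 and -0.65 in downstream 1 exposure 1, between -1.23 and -0.82 in exposure 2, and between -1.75 and -1.43 in exposure 3. Closeness within an exposure follows from the rule that joined these members. The highest of them in exposure 3 was thus below the lowest in exposure 2. All 13 IDs start with P, as do 36 of the 48 features that passed and 4936 of the 7388 tested. At the entry and at downstream 2 their mean was -1.23 and -1.21.

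The profile of 8 features, to which P5BE5 belongs, was positive. Its mean was 0.06, 0.04 and 0.03 upstream, and 1.60, 1.72 and 1.31 in downstream 1 exposures 1, 2 and 3. Between downstream 1 exposures this mean varied less than those of the profiles of 13 and 4 features, but exposure 3 was the lowest in every member. Members differed from upstream by 1.38 to 1.63. Their mean was 1.41 at the entry and 1.50 at downstream 2.

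The profile of 4 features held some of the most positive values of the comparison. It was at 0.20, 0.19 and 0.14 upstream, and at 2.44, 3.68 and 3.86 in downstream 1 exposures 1, 2 and 3. The 4 members, joined because they lie close, were at 2.41 to 2.49, 3.59 to 3.75 and 3.72 to 3.98 in these exposures. Downstream 1 exposure 1 was therefore low in all of them by more than 1. The same step appeared in a wider set, which includes these 4 features. Of 15 features with a downstream 1 mean over 2, an upstream mean within 0.5 of the control and a difference over 1, exposure 1 was the lowest of the downstream 1 exposures in 15, with a median of 2.35 against 3.60 and 3.67 in exposures 2 and 3. Upstream medians of these 15 features were 0.20, 0.22 and 0.22. They had no overlap of the waters in 15 of 15, against 12.2% of all features measured in all 6 exposures, but were chosen by a large difference. Of the 15, 7 passed, against 0.650% of all features tested, and limma adjusted p ran from 0.024 to 0.11. The choice by a large difference favours passing as well.

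**Figure D5:**
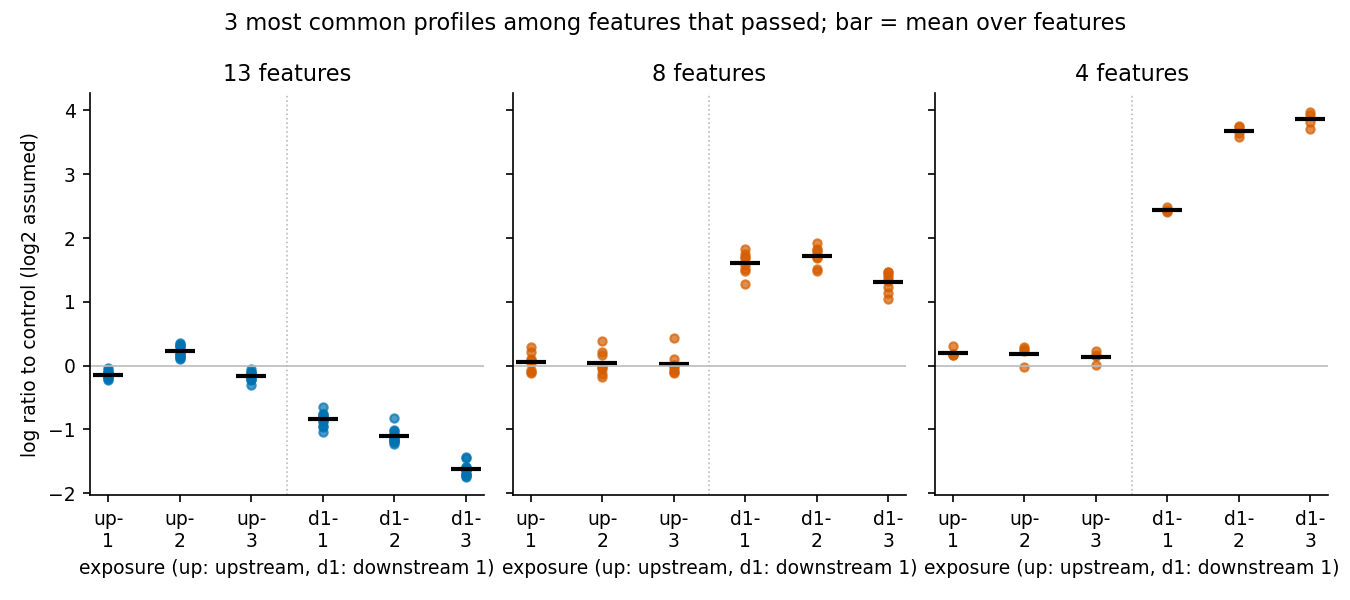
Log ratio to control (vertical axis, log2 assumed) of the features in the 3 most common profiles in each upstream and downstream 1 exposure (horizontal axis), a point per feature and a bar for the mean over features. The 13 features at left go to -1.63 in downstream 1 exposure 3, the 8 in the middle lie between 1.31 and 1.72 on average, and the 4 at right are at 2.44 in downstream 1 exposure 1 against 3.68 and 3.86 in exposures 2 and 3.

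Both dye orientations gave the same sign for each of the 48 features. The 23 positive differences ranged from 0.67 to 3.25 with exposed RNA in Cy5 and from 0.68 to 3.30 with exposed RNA in Cy3, with medians of 1.66 and 1.41. The 25 negative ones ranged from -2.41 to -0.91 and from -2.40 to -1.00, with medians of -1.23 and -1.27. These arrays are the ones averaged above, so they are no independent support.

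For most features the data bound the difference rather than show one. Unadjusted 95% intervals extended 0.419 to each side of the difference in the median feature, and 0.726 at the upper quartile. It lay wholly within 0.5 of 0 for 3044 of 7388 features (41.2%), and within 1 for 5384 (72.9%). The intervals of the other features reached beyond 1 in at least one direction. At an unadjusted p under 0.05, 588 features (7.96%) differed in limma, and 48 of them passed after adjustment.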

How the data were processed

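The deposited table holds, per array, a log2 ratio for each of 7680 features. That the scale is log2 is taken from the values (between -5.74 and 6.15 here), and the natural log stays possible. How the authors scanned, corrected, filtered and normalized the arrays is not stated in what was used here. Deposited array medians lay between -0.0156 and 0.0100, and 7015 to 7362 features had a value on an array. No intensities were used, so the number of exposures sets the precision.

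Array medians were set to 0, and the mean of the dye-swap pair stood for its exposure, which counts as 1 replicate. Where an array lacked a value, the other array stood for the exposure. Features measured in 2 or more of the 3 exposures of each of the 4 sites were kept (292 were left out). All 12 exposures entered a limma fit (lmFit, eBayes, limma 3.58.1, R 4.3.3) with site as the factor, 8 residual and 1.79 prior degrees of freedom, a contrast of downstream 1 against upstream, and Benjamini-Hochberg adjustment over all features. The entry and downstream 2 exposures only add to the estimate of the spread. The steps were tested on simulated data. The members and lists were chosen with earlier results of these data known. By rule, the 2 features of lowest p in each direction are named among those passing with all 6 exposures measured and no overlap. Plots used Python 3.11.15 and matplotlib 3.10.9. Alternatives covered the samples in the fit, scaling, centring, dye orientation, weights, filters and left-out exposures.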

Additional observations from a re-analysis of the deposited data

How the results depend on the processing

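Of 17 alternatives, the count of 48 features stayed within 1.5 times with no centring (49), exposed RNA in Cy3 alone (37), a robust variance estimate (45), features on all 24 arrays (46) and a looser filter on missing values (48). It became 16 with both waters fitted alone, 9 with scaled arrays, 25 with exposed RNA in Cy5 alone, 209 with all 24 arrays and 28 with array weights, and 9 to 45 with an exposure left out. The 48 features had one sign under every alternative that measured them, 42 of them on all 24 arrays. Same-numbered exposures did not deviate together throughout. Deviations from the site means correlated at -0.14, -0.43 and 0.41 for numbers 1, 2 and 3, and upstream exposures 1, 2 and 3 correlated best with downstream 1 exposures 2 (0.37), 1 (0.48) and 3 (0.41). The labels give no such pairing, no crossed pairing was fitted, and the 48 calls come from a fit without it. With exposure numbers fitted as a replicate block, 0 features passed in limma (443 at an unadjusted p under 0.05, 2 residual degrees of freedom), and the 4 named features had adjusted p of 0.26. Each named feature passed in 15 of 17 alternatives, the exceptions being this block and scaled arrays. The difference in distance from control was -0.0586 to -0.0127 with an exposure left out and 0.0184 with Cy3 alone. The cause of these moves was not tested.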

Other observations

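The first letters and number of an ID may name a clone plate, which the sources used here do not state. Features whose IDs start with A6 made up 380 of those tested and 8 of the 48 that passed (16.7%), 7 of them negative, among them A6E16. The share passing among them was 2.11%, against 0.650% of all features. Of these 380, 10.3% differed by over 1 in size between the waters, against 3.57% of all features. IDs starting with P9 also held 8 of the 48, from 377 tested (2.12%), with 5.04% over 1 in size. No feature passed among those starting with A3, A4, A5, A7 or P7 (0%, against 0.650% of all features), each with 271 to 379 tested. By first letter, 12 of 2452 features starting with A (0.489%) and 36 of 4936 starting with P (0.729%) passed. These shares are given as values, and no test was made of them.

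Some features that resembled the 3 most common profiles did not pass. Within a root mean square distance of 0.3 of the mean profile of the 13 negative features there were 24 features measured in all 6 exposures, 15 of which passed, with a highest limma adjusted p of 0.72. For the profile of 8 positive features there were 20, of which 9 passed, with a highest limma adjusted p of 0.17. For the profile of 4 there were 7, of which 4 passed, with a highest limma adjusted p of 0.10. Over all features tested 0.650% passed. The members that define each profile had all passed and were not left out of these counts, so the numbers passing are favoured by the choice.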
